A study of Rattus norvegicus with 6 samples.

Results

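The 8 genes described here encode the enzymes that remove superoxide and hydrogen peroxide in rat cells: the superoxide dismutases Sod1, Sod2 and Sod3, catalase (Cat) and the glutathione peroxidases Gpx1, Gpx2, Gpx3 and Gpx4. They were taken by name, through the RefSeq transcript that each array probe carries, and all 8 were found among the 15284 genes that could be named on the array. Renal cortex RNA of 6 male Sprague-Dawley (Crl:CD(SD)) rats, bought at 5 weeks of age, was hybridised in a single colour (Cy3) to 1 Agilent oligonucleotide array per animal. The controls were 3 rats given only corn oil (the label Corn Oil), and the other 3 were dosed daily with 750 mg/kg of 2-Amino-4-nitrophenol. Dosing lasted 4 weeks in either group, and all rats had the same basal diet and tap water. 2-Amino-4-nitrophenol is a nitroaromatic amine used in hair dyes. The comparison asks which of the antioxidant enzyme transcripts differed between dosed and corn oil rats. The groups are called treated and corn oil below.

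Superoxide dismutases turn superoxide into hydrogen peroxide and oxygen. Catalase, a heme enzyme of peroxisomes, and the glutathione peroxidases then break hydrogen peroxide down, the latter by oxidising glutathione. The rat enzymes of Gpx1, Gpx2, Gpx3 and Gpx4 carry selenocysteine, an amino acid inserted at a UGA codon, so that their synthesis depends on selenium. The proximal tubule of the renal cortex is rich in mitochondria and peroxisomes and is the main source of the secreted glutathione peroxidase of plasma, the product of Gpx3.

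The 3 genes whose treated arrays all lay above the corn oil arrays were Gpx4, Sod2 and Sod1, and the windows before the annotated transcription start are shown for 2 of them. The window of Gpx2 is added because a core antioxidant response element, the sequence that NRF2 binds, lay close to its start. Each window is the 250 bases before a RefSeq start on the GRCr8 assembly, read 5′ to 3′ on the strand of the gene, and capitals mark matches to the motifs described below. For Gpx4 the most upstream of 3 annotated starts was taken.
Gpx4 (chr7:10303630-10303879, minus strand): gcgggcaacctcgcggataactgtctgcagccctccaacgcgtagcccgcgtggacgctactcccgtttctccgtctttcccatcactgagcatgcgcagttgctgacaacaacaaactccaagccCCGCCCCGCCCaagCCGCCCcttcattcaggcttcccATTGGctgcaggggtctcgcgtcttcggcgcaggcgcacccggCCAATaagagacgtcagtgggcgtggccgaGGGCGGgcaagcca
Sod2 (chr1:50050169-50050418, minus strand): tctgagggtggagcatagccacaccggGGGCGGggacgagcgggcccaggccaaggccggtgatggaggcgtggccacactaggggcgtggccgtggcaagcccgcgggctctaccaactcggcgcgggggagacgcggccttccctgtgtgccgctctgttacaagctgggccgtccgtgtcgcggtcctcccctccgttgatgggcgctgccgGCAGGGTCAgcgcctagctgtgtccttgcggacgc
Gpx2 (chr6:101230034-101230283, minus strand): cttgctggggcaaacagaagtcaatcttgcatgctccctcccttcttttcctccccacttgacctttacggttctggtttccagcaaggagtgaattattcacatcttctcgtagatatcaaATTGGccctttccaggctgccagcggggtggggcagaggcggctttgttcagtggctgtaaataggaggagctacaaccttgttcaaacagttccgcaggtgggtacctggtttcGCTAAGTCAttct

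The motifs were searched on both strands, and overlapping matches were counted. They were the antioxidant response element core TGACNNNGC, the GC box GGGCGG, the CCAAT box CCAAT and the TATA box TATAAA. Of the 8 genes 7 had a window, Sod3 having none in the table used here. These 7 genes had 9 windows, Gpx4 having several, and a gene was counted when any of its windows held the motif. The shares over all genes are per window, so gene counts and shares are in different units. The antioxidant response element core was found in 2 of the 7, against 10.1% of 33469 windows of all genes. In Gpx2 it read GCTAAGTCA, the reverse complement of the motif, 13 bases before the start, and in Sod2 it read GCAGGGTCA, 35 bases before the start. A GC box lay in the windows of 5 of the 7 genes, against 30.5% of all windows, and a CCAAT box in 4, against 34.0%. The window of Gpx4 shown above held 4 GC boxes, 2 of them sharing a base run, and 2 CCAAT boxes. Sod1 alone among the 7 held a TATA box, 28 bases before its start, against 12.9% of all windows. These matches are descriptions of the letters in the windows.

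All 16 probes of the 8 genes were well above background on all 6 arrays, and no probe was saturated. Levels are given as log2 of the processed signal minus the 75th percentile of the array, so 0 is that percentile itself. Levels of different genes come from different probes and were not set against each other. The genes were tested among 11748 named genes with limma, and p-values were adjusted over all of these by the Benjamini-Hochberg method. Of the 8 genes, 0 passed an adjusted p of 0.05 in limma, a threshold that 3 genes (0.0255% of those tested) passed, 0.017% as higher and 0.00851% as lower. At an unadjusted p under 0.05, 3 of the 8 passed, against 21.6% of all genes. These 3, Sod1, Sod2 and Gpx4, were higher in treated cortex, against 14.3% of all genes, and 0 were lower, against 7.29%. These directions depended on the scaling: with spike-in scaling 0 of the 8 were higher and 2 lower (Gpx1 and Gpx3), and over all genes 119 were higher and 2422 lower, in place of 1679 and 856. Without scaling 0 of the 8 were again higher and 2 lower, with 130 and 4669 over all genes, and quantile normalization gave 1 higher and 2 lower, with 967 and 1120 over all genes. The arrays of the groups did not overlap for the same 3 of the 8, against 30.2% of all genes. The treated arrays were the higher ones for these 3, as for 20.1% of all genes, and the lower ones for 0, against 10.1%. A log2 change below 0 was found for 2 of the 8, Gpx1 and Gpx3, against 42.6% of all genes. The median log2 change of the 8 genes was 0.25, beside 0.04 over all genes tested. Over the 1175 genes with the highest mean signal the median was 0.23, and Sod1, Sod3, Gpx1, Gpx3 and Gpx4 were among these. With 3 animals per group, the precision of each value is limited.

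**Figure D1:**
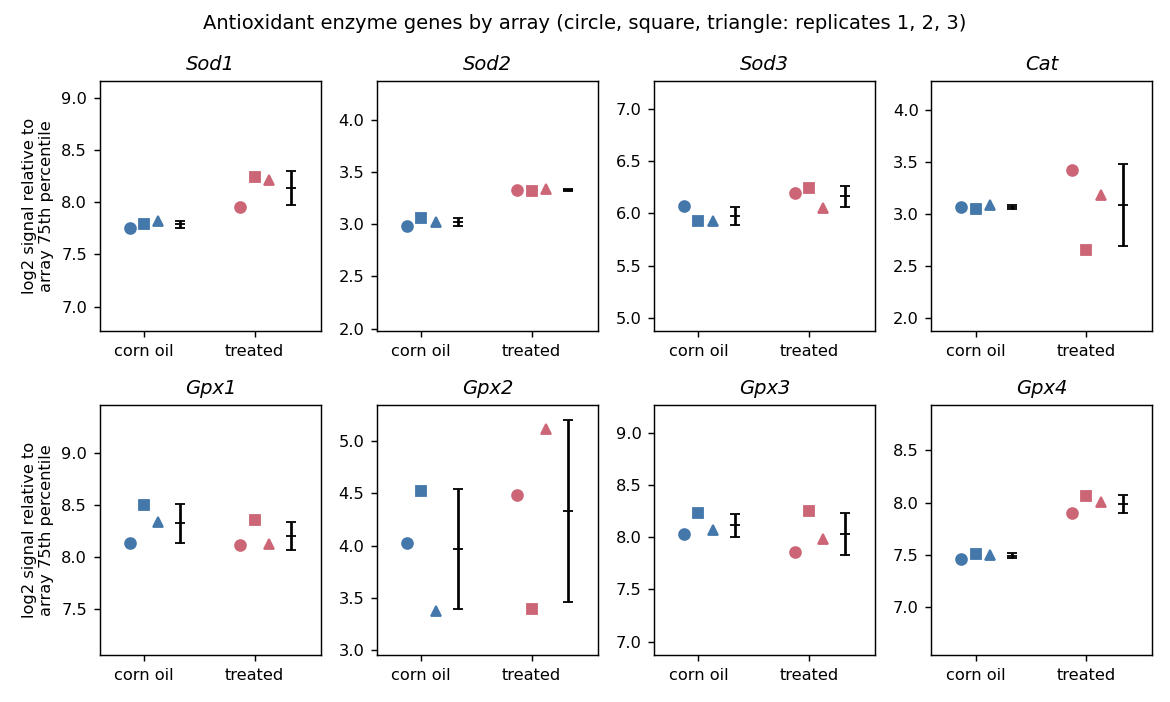
Log2 level of each antioxidant enzyme gene relative to the 75th percentile of the array (vertical axis, same span in every panel) on the 3 corn oil and 3 treated arrays, with the mean and SD beside the points. The treated arrays lay above all corn oil arrays for Sod1, Sod2 and Gpx4, and Gpx2 had the widest spread in either group.

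The cytosolic copper and zinc enzyme gene Sod1 had log2 levels of 7.75, 7.79 and 7.82 on corn oil replicates 1, 2 and 3, and of 7.95, 8.25 and 8.22 on the treated replicates. All treated arrays were above the corn oil arrays, with treated replicate 1 nearest to them. The log2 change was 0.35 ± 0.10 (SE, n = 3 per group; 95% interval 0.10 to 0.60; limma adjusted p = 0.153), a 1.28-fold difference, and without treated replicate 3 its unadjusted p was 0.0507. The other 2 probes of Sod1 gave log2 changes of 0.37 and 0.34.

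Sod2 encodes the manganese enzyme of the mitochondrial matrix. Its log2 levels were 2.99, 3.06 and 3.02 on the corn oil arrays and 3.33, 3.32 and 3.33 on the treated arrays. The treated arrays lay closer together (SD 0.0089) than the corn oil arrays (SD 0.037), and the groups did not overlap. Treated minus corn oil gave a log2 change of 0.30 ± 0.07 (SE; 95% interval 0.13 to 0.48; limma adjusted p = 0.130), or 1.23-fold. The dimmer probe gave a log2 change of 0.28, and its arrays did not overlap either.

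The secreted, matrix-bound copper and zinc enzyme gene Sod3 had log2 levels of 6.07, 5.93 and 5.92 on the corn oil arrays and 6.20, 6.24 and 6.05 on the treated arrays. Corn oil replicate 1 lay above treated replicate 3, so the groups overlapped. This gave a log2 change of 0.19 ± 0.09 (SE; 95% interval -0.03 to 0.41; limma adjusted p = 0.281).

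Catalase had a narrow corn oil range and a wide treated range. The log2 levels of Cat were 3.07, 3.05 and 3.08 on corn oil replicates 1, 2 and 3, and 3.42, 2.65 and 3.19 on treated replicates 1, 2 and 3. Treated replicate 2 lay below every corn oil array and the other treated arrays lay above them. The SD was 0.018 in the corn oil group and 0.39 in the treated group. The log2 change of 0.02 ± 0.20 (SE; 95% interval -0.46 to 0.49; limma adjusted p = 0.963) therefore averages animals on opposite sides of the corn oil level. Without treated replicate 2 it was 0.24, and without treated replicate 1 it was -0.15.

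Gpx1, the most widely expressed glutathione peroxidase of cytosol and mitochondria, was among the brightest features of the array. Its log2 levels were 8.14, 8.50 and 8.34 on the corn oil arrays and 8.12, 8.36 and 8.13 on the treated arrays. The groups overlapped, and replicate 2 was the highest array of each. Between the group means the log2 change was -0.12 ± 0.13 (SE; 95% interval -0.43 to 0.18; limma adjusted p = 0.599), and the second probe also gave -0.12. Without corn oil replicate 1 it was -0.22 and without corn oil replicate 2 it was -0.03.

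The gene of the secreted plasma enzyme, Gpx3, had log2 levels of 8.04, 8.23 and 8.07 on the corn oil arrays. On the treated arrays it had 7.86, 8.25 and 7.98. Treated replicates 1 and 3 lay below all corn oil arrays and treated replicate 2 above them. The log2 change was -0.08 ± 0.13 (SE; 95% interval -0.39 to 0.22; limma adjusted p = 0.723), and it was 0.0035 without treated replicate 1. Summed over the 8 markers of the proximal tubule, all of which were measured, the linear level relative to the 75th percentile ranged from 1155 to 1258 in corn oil rats and from 1208 to 1263 in treated rats, which overlapped. This sum is carried by the brightest markers. At an unadjusted p under 0.05 in limma, 3 of the 8 were lower, against 7.29% of all genes. These were Lrp2 (log2 change -0.34), Slc5a12 (-0.50) and Cubn (-0.52). All treated arrays lay above the corn oil arrays for 2 markers, Slc34a1 (0.19) and Slc22a6 (0.14), against 20.1% of all genes. They all lay below for 2, Lrp2 and Slc5a12, against 10.1%. The median log2 change of the 8 markers was -0.07, and the part of these markers in the values of Gpx3 was not tested. In RNA from whole cortex, fewer cells of a type and less RNA per cell cannot be told apart.

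Gpx2, a peroxidase best known from epithelia of the gut, differed most between animals of the same group. Its log2 levels were 4.02, 4.52 and 3.37 on corn oil replicates 1, 2 and 3, and 4.49, 3.39 and 5.12 on treated replicates 1, 2 and 3. The highest array was a treated one, and the lowest were corn oil replicate 3 and treated replicate 2. The SD was 0.58 among the corn oil arrays and 0.87 among the treated arrays. The log2 change was 0.36 ± 0.49 (SE; 95% interval -0.83 to 1.55; limma adjusted p = 0.691), an interval that runs from 0.564-fold to 2.93-fold. The other 2 probes gave 0.29 and 0.23 and ranked the 3 corn oil arrays and the 3 treated arrays in the same order. The change was 0.83 without treated replicate 2 and -0.03 without treated replicate 3.

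Gpx4 encodes the peroxidase that reduces lipid hydroperoxides within membranes and thereby restrains ferroptosis. Of the 8 genes it had the largest log2 change and the lowest p. Its log2 levels were 7.461, 7.506 and 7.498 on the corn oil arrays and 7.900, 8.068 and 8.002 on the treated arrays. The groups were well apart, with SDs of 0.024 and 0.085. The log2 change was 0.50 ± 0.08 (SE; 95% interval 0.31 to 0.69), a 1.42-fold difference, with an unadjusted p of 0.00066 and an adjusted p of 0.0904 in limma. Among the 11748 genes tested, 606 had a larger positive log2 change. The other 2 probes gave log2 changes of 0.47 and 0.51, and at each the treated arrays lay above the corn oil arrays. The adjusted p of the brightest probe was 0.0510 at the lowest (normexp background correction) and 0.474 at the highest (spike-in scaling) among the alternatives.

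**Figure D2:**
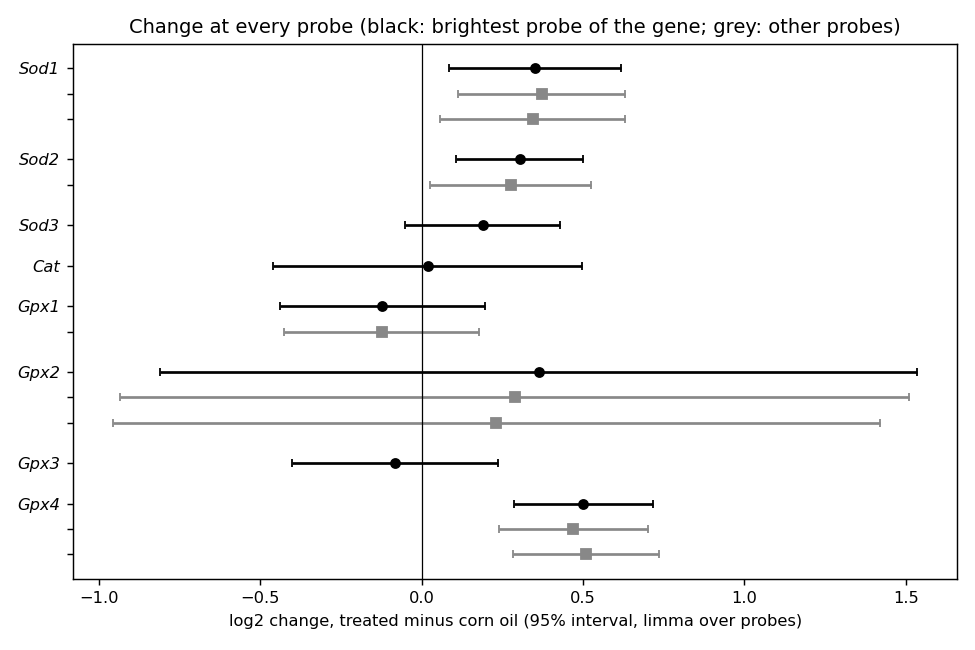
Log2 change of treated minus corn oil (horizontal axis) with the 95% interval of limma over all probes, for each of the 16 probes of the 8 genes. The probes of a gene lay close together, and the intervals of all probes of Sod1, Sod2 and Gpx4 were above 0.

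All 3 treated arrays shared a slide with corn oil replicates 1 and 3, on which the groups lay in different rows, and corn oil replicate 2 was the only array of the other slide. With the slide as a block, which equals the comparison within the shared slide, the log2 changes were 0.51 for Gpx4, 0.35 for Sod1, 0.32 for Sod2, 0.17 for Sod3, 0.01 for Cat, -0.03 for Gpx1, -0.02 for Gpx3 and 0.64 for Gpx2. Row on the slide and treatment cannot be told apart.

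The scaling of the arrays bore on several of these values, since the 75th percentile by which each array was scaled lay between 743 and 852 units of signal in the corn oil group and between 564 and 685 in the treated group. Before scaling, the processed signal of Gpx4 was still higher on every treated array (151221 to 163482) than on every corn oil array (135142 to 150213). The unscaled signal of Gpx1 was lower on every treated array (175421 to 190513) than on every corn oil array (239768 to 269358). That of Gpx3 was likewise lower, at 158224 to 172010 against 213296 to 223820. For the other 5 genes the unscaled signals overlapped. Without scaling the log2 changes were 0.15 for Gpx4, -0.47 for Gpx1 and -0.44 for Gpx3, and the median log2 change of all genes was -0.31.

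Scaling on 7 spike-in control probes shifted the median of all genes by -0.32. Since this scaling moves all genes of an array by the same constant, it leaves the changes relative to the median of all genes as they are by construction. These were 0.46 for Gpx4, 0.31 for Sod1, 0.26 for Sod2, -0.17 for Gpx1 and -0.13 for Gpx3. Quantile normalization, which forces all arrays to 1 distribution, gave 0.17 for Gpx4, 0.18 for Sod2, 0.0017 for Sod1, -0.43 for Gpx1 and -0.41 for Gpx3. Under it Gpx1 and Gpx3 had unadjusted p-values of 0.0064 and 0.0051 in limma, with adjusted p-values of 0.161 and 0.150. Over all genes, the median log2 change was 0.23 among the 1175 with the highest mean signal and -0.12 among as many with the lowest, and Sod1, Sod3, Gpx1, Gpx3 and Gpx4 all belonged to the brightest 1175. Among those, 81 had a log2 change below that of Gpx1 and 111 below that of Gpx3.

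**Figure D3:**
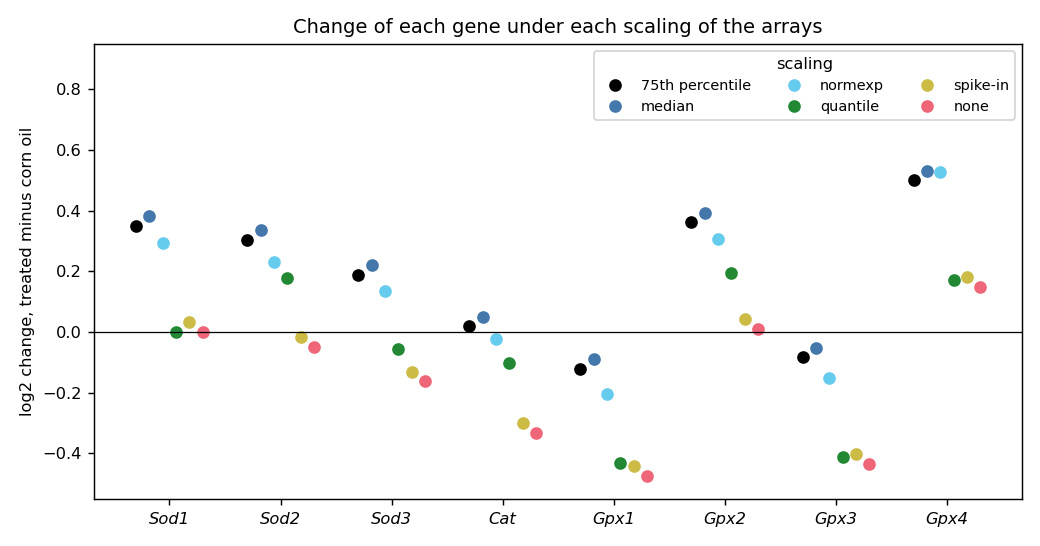
Log2 change of treated minus corn oil (vertical axis) for each gene under 6 ways of setting the arrays to a common level. Gpx4 was above 0 and Gpx1 and Gpx3 were below 0 under all 6, whereas Sod1, Sod2, Sod3 and Cat took either sign.

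A ratio of genes within an array does not depend on a constant that scales the whole array, and shows unequal change of the genes rather than the level of either. This comparison was chosen after the values were seen. The log2 ratio of Gpx1 over Gpx4 was 0.67, 1.00 and 0.84 on the corn oil arrays and 0.22, 0.29 and 0.13 on the treated arrays. The groups lay far apart, with a difference of -0.62 (SD 0.16 and 0.08), or 0.649-fold. The log2 ratio of Gpx3 over Gpx4 was 0.57, 0.73 and 0.57 on the corn oil arrays and -0.04, 0.19 and -0.02 on the treated arrays. Its difference was -0.58 (SD 0.09 and 0.13), or 0.667-fold, again without overlap. The difference ranged from -0.73 to -0.54 for Gpx1 over Gpx4 and from -0.68 to -0.53 for Gpx3 over Gpx4 over 12 alternatives, quantile normalization and leaving out each array among them.

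By contrast, Gpx1 over Gpx3 differed by -0.04, with overlapping groups. Sod1 and Sod2 differed from Gpx4 by -0.15 and -0.20, each without overlap, although Sod2 over Gpx4 gave 0.0069 after quantile normalization. All 28 pairs of the 8 genes were compared, and 10 of them did not overlap between the groups. The same share over pairs of all genes tested was not computed, and 30.2% of single genes already did not overlap. The count of 10 is therefore not read as a trait of these genes. Sod3 and Cat over Gpx4 were also among these, with differences of -0.31 and -0.48, whereas Gpx2 over Gpx4 (-0.14) overlapped. Pairs that share a gene are not independent. Each pair described here as without overlap had an exact two-sided permutation p of 0.1, the smallest that 3 arrays against 3 can give, and an adjusted p of 0.28 over the 28 pairs, and so did not pass.

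**Figure D4:**
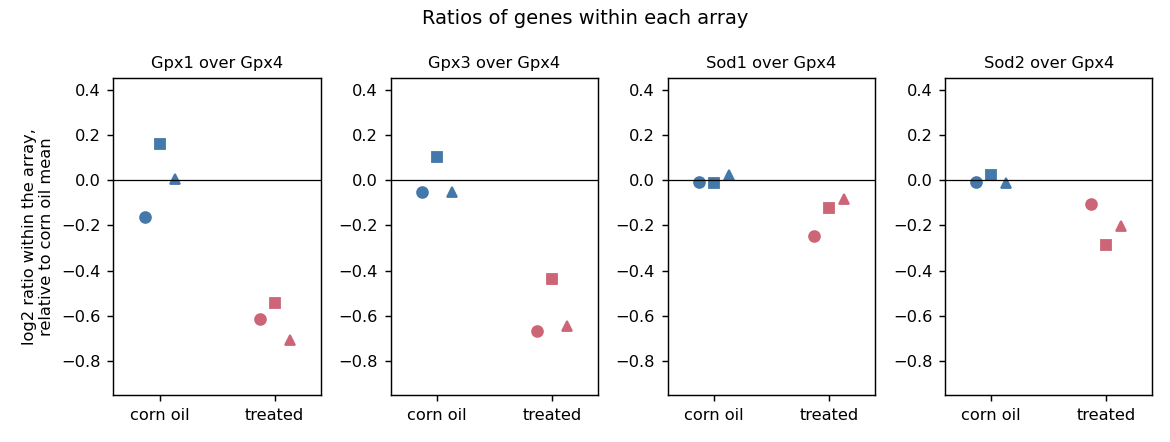
Log2 ratio of Gpx1, Gpx3, Sod1 and Sod2 to Gpx4 within each array, relative to the corn oil mean (vertical axis); circle, square and triangle are replicates 1, 2 and 3. The treated arrays lay below all corn oil arrays in the 4 panels, with differences of -0.62, -0.58, -0.15 and -0.20.

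Likeness to other genes was measured as the root mean square difference over the 6 arrays, each gene taken relative to its corn oil mean, for the 2 members with the largest changes. The genes nearest to Gpx4 were Trim58 (0.026), Mix23 (0.033) and Rfk, riboflavin kinase (0.034), on the log2 scale. The genes nearest to Gpx2 were Cndp1, which encodes a carnosine dipeptidase (0.25), Gng7, a G protein gamma subunit (0.27), and Gstp3, a pi class glutathione transferase (0.29). Those 3 shared the high value of treated replicate 3 and had log2 levels on treated replicate 2 below those of the other treated arrays.

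The genes that surround these enzymes were described through 9 lists, and 0 of their members passed the adjusted threshold in limma. Under other settings 1 gene each of the glutathione, peroxiredoxin and manganese lists passed after normexp correction and with trend and robust settings, 2 of the peroxiredoxin list passed without treated replicate 2, and 1 NADPH oxidase gene passed as lower without scaling. The values of the lists are those of the main scaling, and spike-in scaling shifts all of them by about the -0.32 of all genes. Counts below are at an unadjusted p under 0.05, which 14.3% of all genes passed as higher and 7.29% as lower. Of 9 measured genes of selenoprotein synthesis, 1 was higher and 1 lower, and the median log2 change was 0.02. Scly, which releases selenium from selenocysteine, had a log2 change of 0.36 ± 0.08 (SE), although 1 of its 4 probes gave 0.03, and Trit1, a transfer RNA modifying enzyme, had -0.29 ± 0.10. Sephs2, which makes the selenium donor, had 0.19 ± 0.13. Of 16 other selenoproteins, 4 were higher and 0 lower, with a median of 0.17. Among these Selenoh had 0.39 ± 0.12 and the deiodinase Dio3, dim on every array, had 0.72 ± 0.17. Selenop, the selenium carrier of plasma, had 0.04 ± 0.11, with log2 levels of 7.38, 7.46 and 7.40 on the corn oil arrays and 7.54, 7.56 and 7.25 on the treated arrays.

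The next lists hold enzymes that supply or share the reducing power of glutathione and thioredoxin. Of 9 measured genes of the other glutathione peroxidases and glutathione recycling, 4 were higher and 1 lower, with a median log2 change of 0.14. When probes had to be well above background on all 6 arrays, 8 of these genes remained and the median was 0.09. The gene that dropped out was among the 4 higher, so this count and median rest partly on a gene kept through 1 group only. Gclc, of glutathione synthesis, had 1.63 ± 0.23 (SE), glutathione synthetase Gss had 0.63 ± 0.12, and glutathione reductase Gsr, which returns oxidised glutathione to its reduced form, had 0.37 ± 0.15. Gsr stood at 1.57, 1.06 and 1.53 on the treated arrays, against 1.00, 0.97 and 1.07 on the corn oil arrays, so that treated replicate 2 lay within the corn oil range. Of the 10 peroxiredoxin and thioredoxin genes, 7 were higher and 0 lower, and the median was 0.38. That median was 0.20 after quantile normalization, 0.06 with spike-in scaling and 0.02 without scaling. Thioredoxin Txn1 had log2 levels of 6.82, 6.84 and 6.83 on the corn oil arrays and 7.57, 7.54 and 7.73 on the treated arrays, with a change of 0.78 ± 0.08 (limma adjusted p = 0.0799). The peroxiredoxins Prdx6 and Prdx1, which also reduce peroxides, had 0.41 ± 0.08 and 0.45 ± 0.14.

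Further lists hold genes of metal supply and sources of peroxide. Of 10 genes of copper supply, 3 were higher and 0 lower, and Ccs, the copper chaperone of Sod1, had a log2 change of 0.11 ± 0.11 (SE). The copper chaperone Cox17 of mitochondria had 0.39 ± 0.13, and the copper pump Atp7b had 0.48 ± 0.14 from its brightest probe but -0.32 from another. Of 5 genes of a list drawn up for manganese and mitochondrial protein quality, 1 was higher: the mitochondrial carrier Slc25a39, with 0.60 ± 0.08. What Slc25a39 carries was not measured, and its place in this list does not make it a manganese transporter. Its levels were 3.79, 3.90 and 3.81 on the corn oil arrays and 4.39, 4.42 and 4.49 on the treated arrays. The mitochondrial deacetylase Sirt3, which acts on SOD2 protein, had 0.14 ± 0.09 from its brightest probe but -0.13 from the other.

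Of 15 genes of peroxisome import and division, the compartment of catalase, 1 was higher and 1 lower. Pex11a, a factor of peroxisome division, had -0.53 ± 0.13 (SE), the membrane docking factor Pex14 had 0.23 ± 0.07 and the import receptor Pex5 had -0.12 ± 0.10. Of 9 oxidases that make hydrogen peroxide, most of them peroxisomal, 1 was higher (the dim Acox2, 0.65 ± 0.21), and 0 were lower. Of 11 NADPH oxidase genes, 2 were higher and 1 lower. Nox4, the main NADPH oxidase of renal tubules, had 1.451, 1.497 and 1.694 on the corn oil arrays and 2.10, 1.83 and 1.95 on the treated arrays, a log2 change of 0.41 ± 0.11. Nox1 had -0.51 ± 0.11, but it was the dimmest of the 11, with mean log2 levels of -4.75 on corn oil and -5.26 on treated arrays. When probes had to be well above background on all 6 arrays, 10 of the 11 remained and their median went from 0.08 to 0.12. Thus 1 gene with a change below that median was kept through 1 group only, and a change as near to background as that of Nox1 is uncertain.

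**Figure D5:**
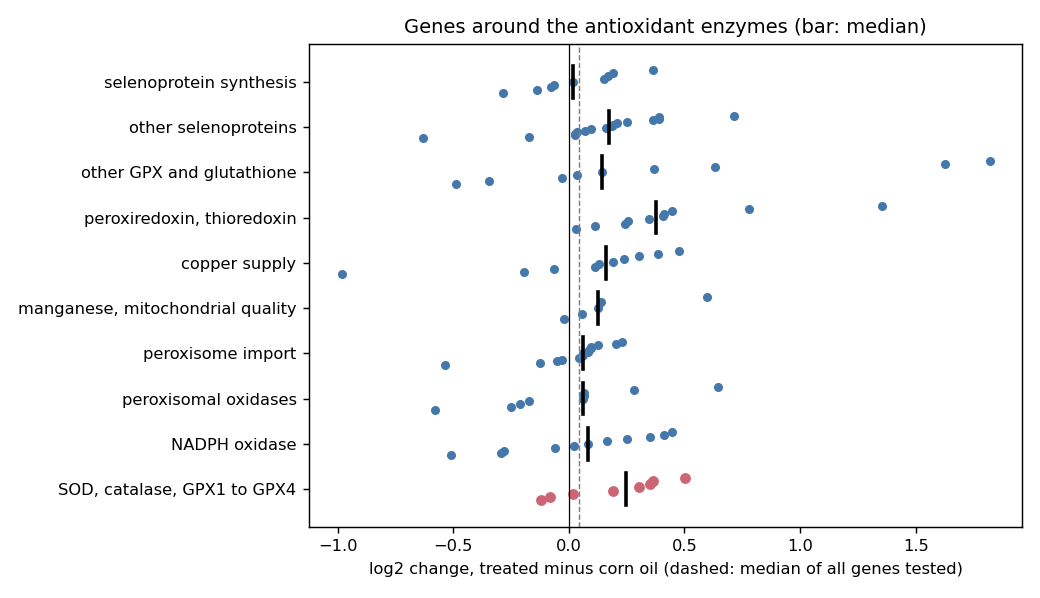
Log2 change of treated minus corn oil (horizontal axis) of each measured gene of 9 surrounding lists and of the 8 antioxidant enzyme genes, with the median of each list as a bar. The peroxiredoxin and thioredoxin list had the highest median (0.38), beside 0.25 for the 8 genes and 0.04 over all genes (dashed line). The median was 0.23 over the 1175 genes with the highest mean signal.

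Markers of other cells moved with the groups in some lists. Red blood cells and their precursors carry much Cat, Sod1 and Gpx1 protein. The linear level was summed over the 4 measured of 6 erythroid markers. This sum ranged from 390.3 to 563 in corn oil rats and from 705 to 959.5 in treated rats, without overlap. At an unadjusted p under 0.05 in limma, 4 of the 4 were higher, against 14.3% of all genes. The sum over 5 of 5 markers of the proximal straight tubule was 267 to 280.3 against 331.5 to 376. This sum was mostly Slc3a1 (log2 change 0.42). At that p 3 of the 5 were higher, whereas the groups overlapped for Cyp2e1 (-0.19) and Slc5a1 (0.33). Of the markers of the thick ascending limb 3 of 4 were measured, and their sum, 264 to 289 against 348 to 445, was nearly all Umod (log2 change 0.45). Kcnj1 had a log2 change of -0.16, and the groups overlapped for it and for Cldn16 (0.35). Over 3 of 4 distal tubule markers the sum was 22.2 to 28.7 against 16.4 to 20.0, and it was mostly Slc12a3. That gene had a log2 change of -0.53 from its brightest probe but -0.13 from another. The groups overlapped for Calb1 (-0.37) and Trpv5 (-0.25). Over 7 of 7 leukocyte and macrophage markers the sums overlapped, at 4.28 to 4.72 against 4.44 to 4.70. Over 3 of 4 neutrophil markers they did not, at 0.51 to 0.70 against 0.82 to 1.86, with log2 changes of 1.01 for S100a8, 1.01 for S100a9 and -0.07 for Camp. The sums overlapped for markers of the collecting duct, glomerulus, endothelium, and smooth muscle and fibroblasts. At that p 3 of 7 collecting duct markers were lower, against 7.29% of all genes, and 0 higher, with a median log2 change of -0.28. Lower markers numbered 1 of 5 for endothelium, 0 of 5 for glomerulus and 0 of 7 for smooth muscle and fibroblasts, and 0 of these were higher. These sums and counts are those of the main scaling, and spike-in scaling shifts the median of all genes by -0.32. The part of these markers in the values of Sod1, Sod2 and Gpx4 was not tested.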

How the data were processed

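Per the labels' protocols, Cy3-labelled cRNA from the renal cortex of 6 rats was hybridised to Agilent arrays. Per the file headers, spots were extracted with Agilent Feature Extraction 10.7.1.1 (10.7 in the submitters' processing notes). The deposited processed intensity is on a linear scale and background-subtracted and detrended by that software, per the file headers. The value table deposited by the authors holds a ratio of signal to the array's 75th percentile, as a comparison with the scanner values showed. Its columns hold the values of scanner files that carry a different replicate number of the same group, and the scanner files' numbers are used.

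Processed intensities were put on the log2 scale and set relative to the 75th percentile of the 61657 non-control probes. After removal of 64 outlier-flagged probes, 40894 stayed that exceeded background clearly throughout 1 group or both. Probes were named through their RefSeq accession in a RefSeq table of GRCr8 (27460 probes), and each gene was represented by its brightest kept probe. Groups were compared over 11748 genes by limma 3.58.1 (R 4.3.3), with no block. The fit was tested on simulated data. Windows before gene starts come from RefSeq on GRCr8, and the array design names another build in the file headers.

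The 8 genes, the lists and the tests were chosen with earlier results of these data known. The text names all 8 genes, the 2 genes of lowest p in each list, 8 further fixed genes of the lists, and the 3 genes most like each of the 2 members with the largest change. A gene chosen this way is left unreported. Alternatives were normexp (offset 50) on the median signals, quantile, median, spike-in and no scaling, the authors' table, other filters, the mean over probes, blocks, trend and robust settings and leaving out each array. No scaling and the ratios within arrays were added after seeing the data.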

Additional observations from a re-analysis of the deposited data

How the results depend on the processing

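In limma the count of called genes among the 8 was 0 in all 18 alternatives run over all genes, and the genes among them at an unadjusted p under 0.05 changed with the scaling. They were 3 higher and 0 lower in the main setting, 1 higher and 2 lower after quantile normalization, 0 higher and 2 lower with spike-in scaling and without scaling (Gpx1 and Gpx3, with Gpx4, Sod1 and Sod2 no longer among them), and 2 higher and 0 lower without treated replicate 3. Over all genes, 3 were called (2 higher, 1 lower). This count was 56 after normexp correction (46 higher, 10 lower) and 69 with trend and robust settings (56 higher, 13 lower), but 9 after spike-in scaling (1 higher, 8 lower) and 97 without scaling (5 higher, 92 lower). It was 0 with no filter, with the mean over probes, with the replicate block and with the slide block (3496, 2443, 2121 and 1764 genes at an unadjusted p under 0.05), and 0 to 70 when 1 array was left out (0 without corn oil replicates 1, 2 or 3, with 1746, 1764 and 1533 genes at an unadjusted p under 0.05, 21 without treated replicate 1, 2 without treated replicate 3 and 70 without treated replicate 2). The replicate block left the log2 change of Gpx4 at 0.50, with an adjusted p of 0.243, and called 0 of the 8. Deviations of same-numbered arrays from their group means correlated at 0.0065, -0.050 and -0.032, and those of unlike-numbered arrays at -0.025 to 0.051. Same-numbered arrays were thus no more alike than others. With 3 arrays per group, these values cannot exclude a pairing of the animals.

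The log2 changes of Gpx1 and Gpx4 kept their sign in all alternatives. That of Sod1 was -0.00093 without scaling, and that of Sod2 was -0.015 with spike-in scaling and -0.048 without scaling. Sod3 gave -0.055 after quantile normalization, -0.13 with spike-in scaling and -0.16 without scaling. Cat gave -0.023 after normexp correction, -0.10 after quantile normalization, -0.30 with spike-in scaling and -0.33 without scaling. When 1 array was left out, the ranges were 0.30 to 0.44 for Sod1, 0.29 to 0.32 for Sod2, 0.15 to 0.24 for Sod3, -0.15 to 0.24 for Cat, -0.22 to -0.03 for Gpx1, -0.030 to 0.83 for Gpx2, -0.20 to 0.0035 for Gpx3 and 0.46 to 0.55 for Gpx4. The log2 ratio of Sod2 over Gpx4 gave 0.0069 after quantile normalization. The cause of these differences was not tested. Groups of 3 arrays are too small to test a single array as an outlier.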
